A study of Mus musculus with 2 samples.

Results

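The 97 genes described here are nuclear-encoded genes of the mitochondrial respiratory chain and of its assembly. They were taken by symbol, so chain genes under other symbols are left out. The rule took every annotated gene whose symbol starts with Nduf, Uqcr, Cox4, Cox5, Cox6, Cox7, Cox8 or Atp5, or is Sdha, Sdhb, Sdhc or Sdhd or one of their assembly factors, without pseudogene and Rik entries. They are 97 of the 32285 genes in the deposited count tables. By complex they comprise 36 subunits of complex I, 4 of complex II, 8 of complex III, 20 of complex IV, 17 of complex V and 12 assembly factors of complexes I and II. The rule uses no measured value.

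The study dissociated whole uteri of female mice aged 6 months and profiled single cells by droplet sequencing of the 3′ ends of transcripts. The control library came from mice titled Prickle1 f/f, and the other library, titled Prickle1 f/f Ltf-cre and called cKO here, from mice that also carried a Cre recombinase driven by Ltf, the lactoferrin gene, which is transcribed in the uterine epithelium. Both groups therefore carry floxed Prickle1, a planar cell polarity gene; a genotype field in the labels calls both C57BL/6J wild-type, against the titles. Cells of 3 mice were pooled into 1 library for either group. Without replicates no test between groups was possible, and the intervals given are exact 95% intervals for the sampling of molecules, with counting error as their only source.

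In all, 45035801 UMIs (unique molecular identifiers, each 1 captured transcript end, so that levels need no scaling by transcript length) and 3653 cells came from control, and 57145553 UMIs and 4950 cells from cKO. Prickle1 had 13 UMIs in control and 2 in cKO among the Epcam-gated cells led by epithelial markers, 0.762 and 0.752 CPM (counts per 1000000 UMIs of the class), and 2.65 and 8.24 CPM over all cells. The deleted part of the gene is not given in the sources used here and a 3′ tag may lie outside it, so these counts check neither label. The 2 libraries shared 5 cell barcodes.

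The respiratory chain passes electrons from NADH through complex I, or from succinate through complex II, to ubiquinone, then through complex III, cytochrome c and complex IV to oxygen, and complex V uses the resulting proton gradient to make ATP. A small set of core subunits is encoded in mitochondrial DNA, and all others are encoded in the nucleus, translated in the cytosol and imported. Contracting muscle is rich in mitochondria, and several complex IV subunits exist as a widely expressed form and a form restricted to muscle, testis or other tissues.

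The promoters of 3 members that the results turn on are shown with the recognition letters of known regulators of respiratory genes: Ndufaf4 had the highest cKO to control ratio in Epcam-gated cells, Atp5g2 had a ratio near 1 there while its 2 sister genes were higher, and Uqcrh was slightly lower. Each run is the 250 bases before the RefSeq start site in GRCm38.p6, 5′ to 3′ on the gene's strand. Capitals mark an NRF1 match in the runs of Ndufaf4 (chr4:24897833-24898082, plus strand) and Atp5g2 (chr15:102671048-102671297, minus strand), and a GABP match in that of Uqcrh (chr4:116075071-116075320, minus strand).
Ndufaf4: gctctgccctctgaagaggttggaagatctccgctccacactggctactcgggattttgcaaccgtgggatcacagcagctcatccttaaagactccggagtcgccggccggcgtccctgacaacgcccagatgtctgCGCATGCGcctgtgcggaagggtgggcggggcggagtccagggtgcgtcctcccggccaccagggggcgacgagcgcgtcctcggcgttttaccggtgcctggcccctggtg
Atp5g2: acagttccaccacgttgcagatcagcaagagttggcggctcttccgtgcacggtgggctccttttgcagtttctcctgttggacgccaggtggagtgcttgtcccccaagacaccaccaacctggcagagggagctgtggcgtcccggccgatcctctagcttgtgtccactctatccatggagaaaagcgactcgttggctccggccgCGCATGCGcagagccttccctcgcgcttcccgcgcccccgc
Uqcrh: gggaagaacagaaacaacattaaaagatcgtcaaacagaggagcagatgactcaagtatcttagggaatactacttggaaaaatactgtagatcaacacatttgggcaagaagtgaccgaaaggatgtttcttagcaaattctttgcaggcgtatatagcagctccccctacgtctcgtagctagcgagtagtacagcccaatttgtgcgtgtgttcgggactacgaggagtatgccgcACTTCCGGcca
The NRF1 core letters CGCATGCG began 112 bases before the start site in Ndufaf4 and 41 bases before it in Atp5g2, and the reverse complement of the GABP letters CCGGAAGT began 11 bases before it in Uqcrh. Of the 97 members, 79 matched an entry of the RefSeq promoter table. Over windows of 300 bases (250 before and 50 after the start) on both strands, the NRF1 letters, which are their own reverse complement, stood in 11 of the 79 members (13.9%), against 2.07% of all 27025 genes in the table. The GABP letters stood in 5 members (6.33%, against 4.31%) and the YY1 letters AAGATGGC in 10 (12.7%, against 3.19%). Uqcr11 held both the NRF1 and the GABP letters, and Atp5j both the NRF1 and the YY1 letters. The NRF1 letters are the inner core of a longer motif, whose longer form stood in fewer members and in fewer of all genes, so these counts depend on the letters searched. The matches are descriptions of letters, not of bound sites.

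Cells were sorted into 7 classes by 1 gate gene each: Epcam (epithelium), Pdgfra (stroma), Actg2 (smooth muscle), C1qa (macrophages), Flt3 (dendritic cells), Cd3e (T cells) and Ncr1 (natural killer cells). In the control library the 97 genes together took the largest share of UMIs in Actg2-gated cells, 2.23% (226 cells), then 1.59% in Ncr1-gated (7 cells), 1.38% in Cd3e-gated (85 cells), 1.22% in Epcam-gated (739 cells), 1.16% in Pdgfra-gated (527 cells), 1.08% in Flt3-gated (30 cells) and 0.811% in C1qa-gated cells (219 cells). The highest to lowest class thus differed by 1.46 on the log2 scale. The Actg2-gated cells were the shallowest, with a median of 1539.5 UMIs, against 4427 to 14651 in the other classes. Among control cells with 5000 to 20000 UMIs, Actg2-gated cells had 1.21% (19 cells). Ncr1-gated cells had 1.62% (6 cells) and Cd3e-gated cells 1.39% (35 cells) in that range. The lead of the Actg2-gated class thus did not hold there. The cell-free barcodes of the same library, those with at most 100 UMIs, carried a share of 1.08%, so the smooth muscle share lay above that of free RNA and the macrophage share below it.

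The cKO library had another order. Its share was highest in Epcam-gated cells, 1.66% (81 cells), then 1.45% in Actg2-gated (347 cells), 1.20% in Ncr1-gated (6 cells), 1.15% in Pdgfra-gated (1339 cells), 1.14% in Cd3e-gated (291 cells), 1.08% in Flt3-gated (108 cells) and 0.830% in C1qa-gated cells (118 cells). The Pdgfra-gated and Cd3e-gated intervals (1.15 to 1.16% and 1.13 to 1.16%) overlapped, and the Ncr1-gated interval (1.13 to 1.29%) overlapped both. With each cell weighted equally, the Actg2-gated class was the highest in cKO as well.

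**Figure D1:**
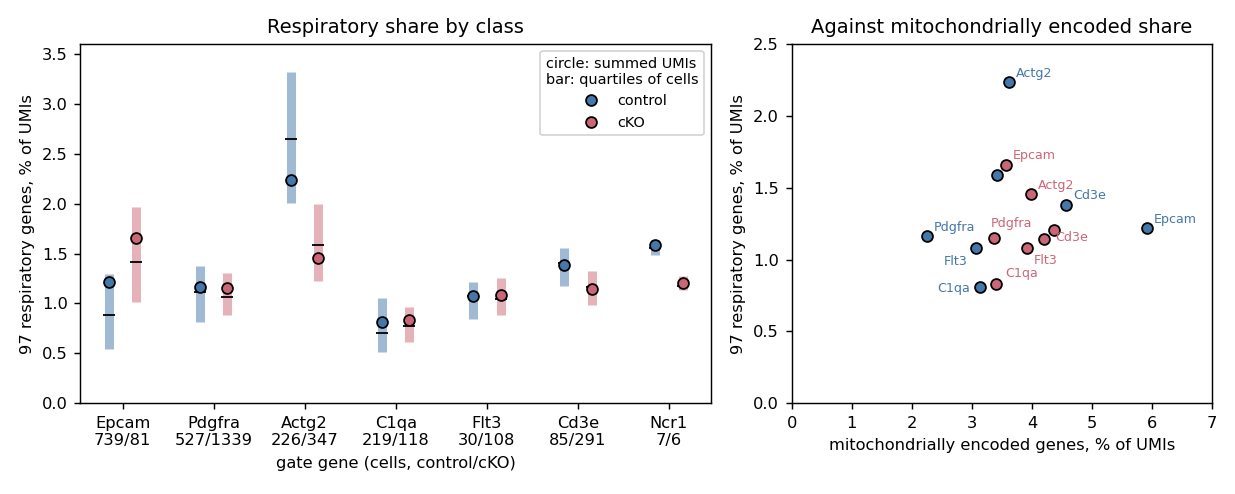
Left: share of UMIs from the 97 genes in each class and library, as circles for summed UMIs and as bars for the quartiles of single cells with the median as a dash, with cell numbers under each gate gene. Right: the same summed shares against the share of mitochondrially encoded genes, with the Ncr1 class unlabelled. The Epcam-gated class moved from 1.22 to 1.66% and the Actg2-gated class from 2.23 to 1.45%, while Pdgfra-gated, C1qa-gated and Flt3-gated cells stayed at nearly the same height.

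In Epcam-gated cells most nuclear respiratory genes were higher in the library labelled cKO. The summed share was 1.22% in control and 1.66% in cKO, a ratio of 1.36 (1.35 to 1.37). Of 91 members with at least 50 UMIs over both libraries, 48 were at least 1.5-fold higher, where 39.6% of all 11213 such genes were, and 0 were at least 1.5-fold lower, where 16.3% of all genes were. The median log2 ratio of the members was 0.60 and that of all tested genes 0.36. Scaling by TMM, which shifted every log2 ratio in this class by 0.34, left a summed log2 ratio of 0.11 and 20 of 91 members past the fold, all higher, where 52.2% of all genes were past it in either direction.

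The cKO Epcam class was mixed and deep. Of its 81 cells, 47 had the epithelial marker list as their strongest list, 25 the stromal list and 3 each the dendritic and the B or plasma list, whereas in control 721 of 739 were led by epithelial markers. Summed stromal markers stood at 228 CPM in control and 3426 CPM in cKO, B or plasma markers at 0.569 and 942 CPM, smooth muscle markers at 37.0 and 432 CPM and mesothelial markers at 17.2 and 312 CPM. The part of these other cells in the ratios over the whole class was not tested. The median depth was 10492 UMIs per cell in control and 34501 in cKO, and Malat1, a nuclear RNA, stood at 40311 and 17195 CPM. The part of depth and of Malat1 in the ratios was not tested.

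Restricted to cells led by epithelial markers, a choice made after seeing the data, the difference was larger. The share was 1.22% in 721 control cells and 1.98% in 47 cKO cells, a ratio of 1.62 (1.61 to 1.64), with stromal markers at 27.8 and 23.3 CPM, B or plasma markers at 0.293 and 2.26 CPM, and mesothelial markers at 2.63 CPM in cKO. Malat1 stood at 40591 CPM in these control cells and 11654 CPM in these cKO cells, and at 77829 and 19768 CPM in those with 5000 to 20000 UMIs, and its part in the difference was not tested. The median cell had 0.851% in control (quartiles 0.537 and 1.29%) and 1.68% in cKO (1.18 and 2.13%), so the middle ranges of the cells overlapped only at their edges. Among these cells those with 5000 to 20000 UMIs had 0.981% in control (243 cells) and 1.79% in cKO (14 cells), and those above 20000 UMIs 1.28% (270 cells) and 1.99% (29 cells). A single cKO cell supplied 10.6% of the member UMIs of its 47 cells.

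In the same epithelial-led cells 63 of 89 tested members were at least 1.5-fold higher in cKO, where 33.8% of all 10543 tested genes were, and 0 were at least 1.5-fold lower, where 19.4% of all genes were. The members' median log2 ratio was 0.82 and that of all genes 0.24. By complex, 27 of 36 complex I subunits were past the fold upward, 3 of 4 of complex II, 6 of 8 of complex III, 6 of 12 of complex IV, 11 of 17 of complex V and 10 of 12 assembly factors. Median log2 ratios were lowest for complex IV (0.56) and highest for the assembly factors (1.23). Uqcrh and Cox7a2l were the tested members with a ratio under 1 (0.895 and 0.939).

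**Figure D2:**
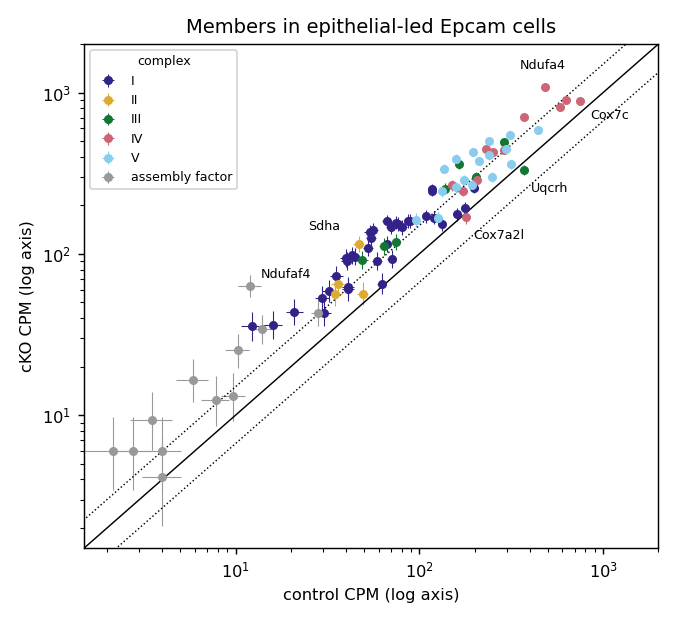
CPM of each tested member in epithelial-led Epcam-gated cells, control (721 cells) on the horizontal and cKO (47 cells) on the vertical axis, both logarithmic, coloured by complex with exact 95% counting intervals. The solid line marks equality and the dotted lines 1.5-fold; nearly all members lie above the solid line and Ndufaf4 lies farthest from it, at 11.95 and 63.57 CPM.

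Complex I, which has the most genes here, also had the most members past the fold in Epcam-gated cells. Its summed level was 2589 CPM in control and 3731 CPM in cKO, and 23 of 36 subunits were past the fold upward, where 39.6% of all tested genes were. Ndufs1, the largest iron-sulfur subunit of the electron-input arm, had 16.3 CPM in control and 36.4 in cKO, a ratio of 2.24 (1.83 to 2.73). The flavoprotein Ndufv1 had 21.3 and 38.3 CPM, and its partner Ndufv2 33.2 and 57.7 CPM. Among further core subunits, Ndufs8 was past the fold (ratio 1.63), and Ndufs3 and Ndufs7 were not (1.23 and 1.31). Ndufa2, the complex I member with the most UMIs over all cells, had a ratio of 1.16. In epithelial-led cells the ratios of Ndufs3 and Ndufs7 were 1.43 and 1.48.

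The assembly factors held the widest ratio. Ndufaf4 (ENSMUSG00000028261, chromosome 4, 24898083 to 24905001, plus strand, GRCm38), which helps to build the peripheral arm of complex I, had 13.04 CPM in control and 77.05 in cKO, a ratio of 5.91 (4.98 to 7.03). In epithelial-led cells the ratio was 5.32 (4.31 to 6.55) with the stromal-led cells left out. Ndufaf2, a late-acting complex I chaperone, had 11.0 and 29.5 CPM, a ratio of 2.68 (2.12 to 3.37). In Pdgfra-gated cells both genes went the other way: Ndufaf4 had 155 CPM in control and 104 in cKO, and Ndufaf2 60.5 and 34.3. In control both genes were highest in Pdgfra-gated cells, at 5.99 and 5.01 times their median over the 7 classes.

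Complex II, which also belongs to the citric acid cycle, had 3 of 4 subunits past the fold upward in Epcam-gated cells, where 39.6% of all tested genes were. Sdha, its flavoprotein and the complex II member with the most UMIs, had 47.0 CPM in control and 98.3 in cKO, a ratio of 2.09 (1.86 to 2.36), and its log2 ratio of 1.07 became 1.96 with cells of 5000 to 20000 UMIs alone. The membrane anchors Sdhc and Sdhd had ratios of 1.60 and 1.54, whereas the iron-sulfur subunit Sdhb had 48.7 and 47.3 CPM. In epithelial-led cells Sdhb had 49.2 and 56.8 CPM, a ratio of 1.16 (0.965 to 1.38).

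Complex III and complex IV were less uniform. Uqcrc2, a core protein of complex III, had 64.8 CPM in control and 98.1 in cKO, whereas the hinge protein Uqcrh, its most abundant member, had 373 and 348 CPM; the log2 ratio of Uqcrh was -0.10, and 0.48 with cells of 5000 to 20000 UMIs alone. Of complex IV, 4 of 14 tested members were past the fold upward, a smaller share than the 39.6% of all tested genes, and the median log2 ratio of 0.34 equalled the TMM shift. In epithelial-led cells 6 of 12 tested complex IV members were, a larger share than the 33.8% of all tested genes there. Ndufa4, first named as a complex I subunit and now assigned to complex IV, had 484 and 875 CPM, a ratio of 1.81 (1.74 to 1.88), and 2.26 in epithelial-led cells. Cox4i1, the complex IV member with the most UMIs, had 590 and 701 CPM, and Cox7c had 736 and 682 CPM. In epithelial-led cells Cox7c was higher in cKO, with 746 and 884 CPM, a ratio of 1.19 (1.13 to 1.24).

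In complex V the 3 genes for the c subunit of the ATP synthase ring, which encode the same mature protein, changed their mixture in Epcam-gated cells. Atp5g1 had 159 CPM in control and 313 in cKO (ratio 1.97), Atp5g3 139 and 307 CPM (ratio 2.20), and Atp5g2 313 and 300.2 CPM (ratio 0.958). Atp5g2 thus supplied 51.3% (50.3 to 52.2) of the UMIs of the 3 genes in control and 32.6% (31.2 to 34.1) in cKO. In Pdgfra-gated cells it supplied 26.5% and 28.8%, and in Actg2-gated cells 38.3% and 38.1%. The ratios varied with the cells used: Atp5g2 turned from a log2 ratio of -0.06 to 0.42 at 5000 to 20000 UMIs, 0.39 as a mean of cells and 0.19 in epithelial-led cells, and Atp5g3 went from 1.14 to 2.02 at 5000 to 20000 UMIs. Atp5b, the catalytic beta subunit, had a ratio of 1.58 and Atp5a1, the alpha subunit, 2.00. Of all 17 complex V members 6 were past the fold upward, a smaller share than the 39.6% of all tested genes. In epithelial-led cells 11 of 17 were, a larger share than the 33.8% of all tested genes there.

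Other mitochondrial gene lists in Epcam-gated cells, read against the 39.6% of all tested genes that were past the fold upward and the 16.3% downward, differed among themselves. Of 78 mitochondrial ribosome genes 56 were past the fold upward and 0 downward (median log2 0.82). The same held for 18 of 24 tested import genes (median 1.07), 11 of 14 citric acid cycle genes (0.70), 6 of 9 electron carrier genes (0.90) and 3 of 5 tested complex III assembly genes (0.72), with 0 downward in each. Cytochrome c oxidase assembly genes, with 8 of 19 upward and 1 downward (0.54), and regulators of mitochondrial biogenesis, with 4 of 11 upward and 0 downward (0.25), were near the share of all genes upward. The 13 mitochondrially encoded genes were lower in sum, from 5.91% to 3.56% of UMIs, with 3 past the fold upward and 6 downward. The summed nuclear members per mitochondrially encoded UMI were therefore 2.26 times higher in cKO. The mitochondrially encoded share of cell-free barcodes was 15.2% in control and 8.92% in cKO, and its part in this ratio was not tested. All list values here are of the whole Epcam-gated class, including its stromal-led cells. In control, import genes stood at 3174 CPM in Pdgfra-gated and 1244 CPM in Epcam-gated cells, and mitochondrial ribosome genes at 3685 and 2438 CPM. The other nuclear lists were also higher in Pdgfra-gated cells, and the mitochondrially encoded genes lower. The part of stromal-led cells in the list ratios was not tested.

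**Figure D3:**
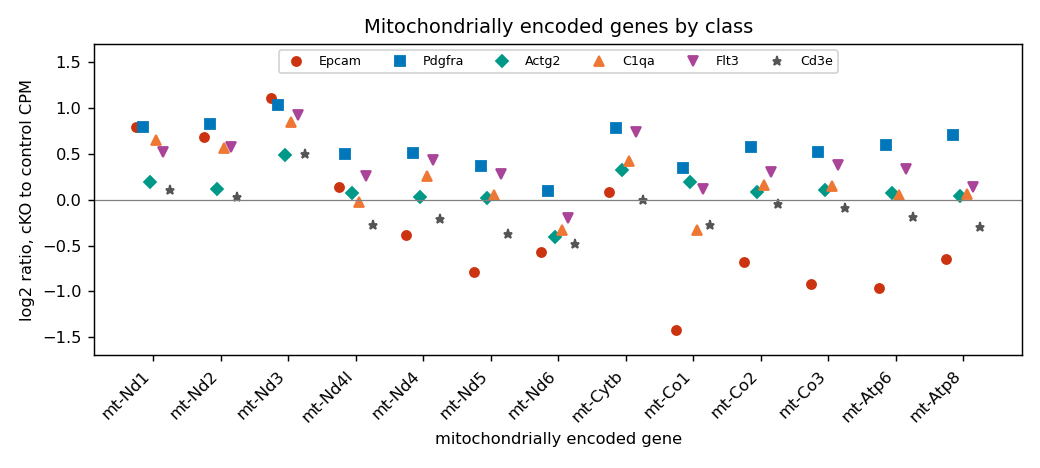
Log2 ratio of cKO to control CPM for each of the 13 mitochondrially encoded genes in 6 classes. In Epcam-gated cells mt-Co1 was lowest at -1.43 and mt-Nd3 highest at 1.11, while in Pdgfra-gated cells all 13 points lay above 0.

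In Actg2-gated cells the members were lower in the library labelled cKO. The summed share was 2.23% in control and 1.45% in cKO, a ratio of 0.651 (0.636 to 0.665). Of 81 tested members 49 were at least 1.5-fold lower, where 8.92% of all 5414 tested genes were, and 0 were at least 1.5-fold higher, where 18.2% of all genes were. The median log2 ratio of the members was -0.66 and that of all tested genes 0.09; TMM scaling, a shift of 0.11, gave a summed log2 ratio of -0.73. Mitochondrially encoded genes took 3.61% of UMIs in control and 3.98% in cKO over all these cells, and 0 of the 13 passed the fold, but their share differed in direction with depth.

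All 5 complexes were lower in sum. Complex I stood at 5736 CPM in control and 3367 in cKO with 27 of 36 subunits past the fold downward, where 8.92% of all tested genes were. Complex II stood at 344 and 263 CPM with 2 of 4, and complex III at 2703 and 1688 CPM with 5 of 8. Complex IV stood at 6191 and 4086 CPM with 7 of 12 tested, and complex V at 7034 and 4799 CPM with 8 of 17. Ndufv3, an accessory subunit of the flavoprotein arm, had 171 CPM in control and 50.5 in cKO, a ratio of 0.295 (0.213 to 0.407). Ndufa13, an accessory subunit also studied as a cell death regulator, had 264 and 109 CPM, and Cox5b of complex IV 313 and 143 CPM. The assembly factors stood apart at 335 and 331 CPM, and Ndufaf4, Cox7a2l and Sdhd had the highest ratios (1.24, 1.18 and 1.11), with intervals that included 1.

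The lower share was found in shallow Actg2-gated cells. Below 2000 UMIs it was 2.79% in control (146 cells) and 1.79% in cKO (195 cells), and from 2000 to 5000 UMIs 2.70% (60 cells) and 1.55% (93 cells). From 5000 to 20000 UMIs it was 1.21% (19 cells) and 1.17% (51 cells), with overlapping intervals (1.15 to 1.26% and 1.14 to 1.21%). The mitochondrially encoded share was lower in cKO in the 2 shallower ranges, 5.07 and 3.32% below 2000 UMIs and 3.31 and 2.83% from 2000 to 5000 UMIs, and higher from 5000 to 20000 UMIs, 2.11 and 3.84%. Malat1 in the shallowest cells stood at 4283 CPM in control and 580 CPM in cKO, and cytosolic ribosomal proteins took 23.4 and 19.3% of UMIs. Smooth muscle markers stood at 23002 and 20261 CPM in the shallowest cells, and at 6116 and 7708 CPM at 5000 to 20000 UMIs, so the markers that define the class were lower in its deeper cells. The part of depth and RNA quality in the lower share was not tested. Summed over all depths, erythroid markers stood at 80.1 CPM in control and 1764 CPM in cKO, and epithelial markers at 359 and 19.0 CPM, and their part was not tested either.

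**Figure D4:**
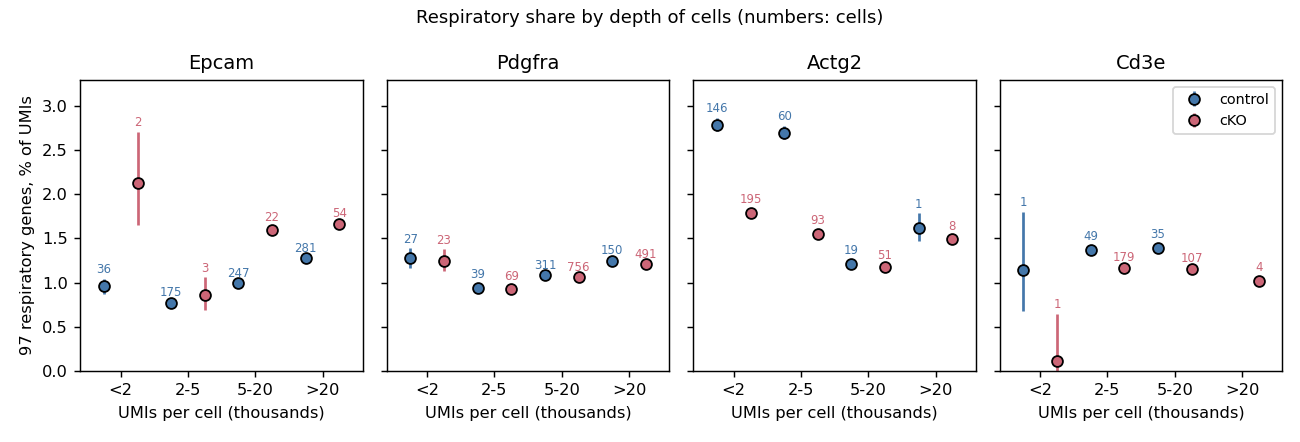
Share of UMIs from the 97 genes by depth of cells in 4 classes, with exact 95% counting intervals and the number of cells at each point. Actg2-gated cells of the 2 libraries were apart below 5000 UMIs (2.79 against 1.79% in the shallowest) and together at 5000 to 20000 UMIs, and Pdgfra-gated cells overlapped or nearly so at each depth.

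Cd3e-gated cells had a smaller difference in the same direction, 1.38% in control and 1.14% in cKO, a ratio of 0.828 (0.803 to 0.853). Of 79 tested members 14 were at least 1.5-fold lower, where 6.64% of all 6088 tested genes were, and 2 were at least 1.5-fold higher, where 17.2% of all genes were; TMM scaling, a shift of 0.14, gave 27 lower and 1 higher and a summed log2 ratio of -0.41, where 22.0% of all genes were past the fold in either direction. The 2 higher members were both of complex II: Sdhb had 33.8 CPM in control and 61.9 in cKO, and Sdhc 38.7 and 63.8. The lower members included Cox7b of complex IV with 242 and 138 CPM, Ndufb11 of complex I with 210.2 and 122 CPM, and Atp5h of the ATP synthase stalk with 363 and 225 CPM. The difference was present at both well-filled depths, at 1.37 and 1.16% from 2000 to 5000 UMIs and 1.39 and 1.15% from 5000 to 20000 UMIs. Cytosolic ribosomal protein genes were lower beside them, 68 of 86 past the fold, and their summed share was 14.0 and 8.45%.

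In Pdgfra-gated cells, the class with the most UMIs in cKO, the nuclear members were level. The share was 1.16% in control and 1.15% in cKO, a ratio of 0.991 (0.984 to 0.999). Of 91 tested members 3 were at least 1.5-fold higher, where 12.1% of all 11733 tested genes were, and 4 were at least 1.5-fold lower, where 11.5% of all genes were. Mitochondrially encoded genes stood at 2.25 and 3.37% of UMIs, so nuclear members per mitochondrially encoded UMI were lower in cKO by 0.60 on the log2 scale (log2 ratio -0.60).

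Single members still differed in this class. The complex III subunit Uqcrq had 227 CPM in control and 325 in cKO. The complex I subunit Ndufb10 had 69.5 and 45.6 CPM. Ndufa4l2, a paralog of Ndufa4 known as a hypoxia-induced gene and a pericyte marker, had 7 UMIs in 2 control cells and 196 UMIs in 64 cKO cells, 0.84 and 7.41 CPM, a ratio of 8.82 (4.20 to 22.2). Its log2 ratio was 3.14 over all these cells and 2.10 in those with 5000 to 20000 UMIs. A single control cell held 5 of the 7 UMIs and a single cKO cell 24 of the 196, and 2 of the 64 cells had a UMI of the pericyte marker Rgs5. Its partner Ndufa4 stood at 370.0 and 385 CPM in the same cells.

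**Figure D5:**
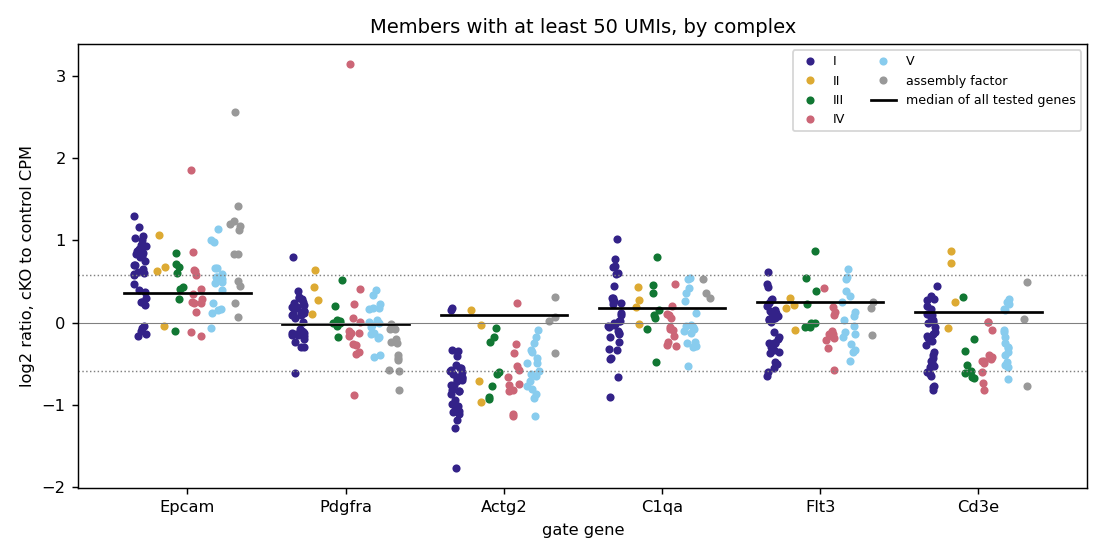
Log2 ratio of cKO to control CPM for each member with at least 50 UMIs, by class and coloured by complex, with dotted lines at 1.5-fold and a black line at the median of all tested genes. Members lie mostly above the black line in Epcam-gated cells (median 0.60) and below it in Actg2-gated cells (median -0.66); the point near 3 in Pdgfra-gated cells is Ndufa4l2.

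C1qa-gated and Flt3-gated cells had nearly equal shares, 0.811 and 0.830% in the former and 1.08% in both libraries in the latter. In C1qa-gated cells 7 of 78 tested members were at least 1.5-fold higher, where 20.9% of all 6047 tested genes were, and 2 were at least 1.5-fold lower, where 9.26% were. Uqcrc2 had 48.6 CPM in control and 84.5 in cKO, and Ndufa8 16.7 and 33.8, whereas Ndufv3 had 40.8 and 21.7. TMM scaling, a shift of 0.16, turned the split to 3 higher and 6 lower, where 28.5% of all genes were past the fold in either direction, and the summed log2 ratio from 0.03 to -0.12. In Flt3-gated cells 3 of 77 were at least 1.5-fold higher, where 30.4% of all 5034 tested genes were, and 2 were at least 1.5-fold lower, where 8.68% were. Uqcrq had 213 and 388 CPM and Atp5a1 231 and 364. The lower members were Ndufa13 with 97.1 and 61.7 CPM and Ndufb11 with 108 and 71.3, both named after their values were seen. On the same side, without passing the fold, Cox5b had 218 and 146 CPM, Atp5j2 239 and 172 and Cox4i1 533 and 429. TMM scaling, a shift of 0.26, turned the split to 1 higher and 12 lower of the 77, where 34.6% of all genes were past the fold in either direction, and the summed log2 ratio to -0.26. With 7 control and 6 cKO cells, Ncr1-gated cells allowed 11 members to be tested, of which 3 (Atp5h, Uqcrh and Cox7a2) were at least 1.5-fold lower, where 15.7% of all 414 tested genes were, and 0 were higher, where 16.9% were.

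The tissue-restricted isoforms were scarce in both libraries. Over all cells Cox4i2 had 20 UMIs in control and 48 in cKO, Cox6a2 31 and 38, Cox7a1 56 and 48, and Cox8b 23 and 11, each under 1% of the summed UMIs of the isoform and its widely expressed partner. Cox7b2 had 1 UMI in control and 0 in cKO, which allows up to 0.0567 CPM there, and Cox8c 1 in each. Cox6b2, the testis form, was the least rare of the complex IV isoforms, with 146 UMIs in control and 245 in cKO, 1.50 and 2.04% of the pair with Cox6b1. In Epcam-gated cells it had 1.82 and 6.62 CPM, and in epithelial-led cells 1.29 and 2.63 CPM. Actg2-gated cells, the muscle class, had 3 UMIs of Cox7a1 in each library, 5.46 CPM in control and 2.19 in cKO. These were 1.49 and 1.06% of the pair with Cox7a2, and the control level was its highest among the classes. Cox6a2 had 0 UMIs there in both libraries, which allows up to 5.46 and 2.19 CPM. Cox6b2 had 8 UMIs there in control and 27 in cKO, 14.6 and 19.7 CPM, its highest measured level among the classes in each library.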

How the data were processed

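The deposited matrices hold raw UMI counts per gene and droplet barcode, unfiltered for cells. Per the submitters' processing notes the authors made these counts with Cell Ranger 6.1.1 on mm10, whereas the deposited matrix header names Cell Ranger 4; the gene annotation they used, and how reads shared by near-identical genes were counted, are not given in the sources used here. Cells were barcodes with at least 500 genes and at most 20% mitochondrially encoded UMIs, 3653 in control and 4950 in cKO; before the second limit 7.19% and 0.921% of such barcodes exceeded it. A class needed at least 2 UMIs of its gate gene and at least 3 times the summed UMIs of the 6 other gate genes, which placed 50.2% and 46.3% of cells. Counts were summed per class and library and divided by the class total. A gene was tested, meaning compared, with at least 50 UMIs over both libraries and called past 1.5-fold. Shares carry exact binomial intervals and ratios conditional binomial ones, and these cover counting error only.

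Doublets were scored with Scrublet in scanpy 1.11.5 and kept; scores over 0.25 were found in 42 control and 60 cKO cells, and an alternative removed them. TMM factors came from edgeR 4.0.16 in R 4.3.3, and the rest was computed in Python 3.11.15 with numpy 2.4.6, scipy 1.17.1 and pandas 2.3.3. The comparison of ratios was tested on simulated counts of the Epcam-gated, Pdgfra-gated and Actg2-gated classes. These held counting error only, with no spread between cells, mice or libraries, so the simulation cannot show error from those sources.

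The rule for the members uses symbols and no measured value, but the members and lists were chosen with earlier results of these data known. The members named were isoforms and their partners, the 3 highest and 3 lowest ratios per class ranked by the interval limit nearer to 1, the member with most UMIs per complex, the 5 most class-restricted in control and 14 core or catalytic subunits. A member that this rule names is not reported here. Alternatives changed the gate, filters, weighting, denominator, scaling, doublets, cell-free RNA, depth and purity. Gene coordinates are from GENCODE M21 and promoters from RefSeq.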

Additional observations from a re-analysis of the deposited data

Results flagged for a closer look

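The respiratory share moved in opposite directions in Epcam-gated and Actg2-gated cells between the same 2 libraries: the log2 ratios of cKO to control were 0.45 and -0.62, a gap of 1.07. The gap between Epcam-gated and Cd3e-gated cells, where the log2 ratio was -0.27, was 0.72. With 1 library per group neither difference was tested. The Epcam-gated cKO class held 81 cells, and the Actg2-gated ratio was -0.04 in cells with 5000 to 20000 UMIs.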

How the results depend on the processing

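Values here are log2 ratios of summed shares or counts of members past 1.5-fold, and where they moved the cause was not tested. The depth and marker-list alternatives were chosen after seeing the data. In Epcam-gated cells the ratio of 0.45 became 0.48 with a 10% mitochondrial limit, 0.58 as a mean of cells, 1.18 per mitochondrially encoded UMI, 0.41 without those UMIs, 0.11 with TMM (20 of 91 members in place of 48, and 52.2% of all genes), 0.46 without doublet scores over 0.25, 0.47 after cell-free subtraction, 0.68 at 5000 to 20000 UMIs and 0.70 in cells led by their own markers. In Pdgfra-gated cells -0.01 became -0.60 per mitochondrially encoded UMI and turned to 0.0042 without those UMIs and 0.0059 with TMM. In Actg2-gated cells -0.62 became -0.45 with the looser gate, -0.47 at 1000 genes, -0.69 as a mean of cells, -0.76 per mitochondrially encoded UMI, -0.73 with TMM, -0.67 after subtraction and -0.038 at 5000 to 20000 UMIs, where 7 named members that were past the fold downward over all depths were higher in cKO: Atp5e 0.23, Atp5j2 0.042, Ndufa2 0.28, Ndufc1 0.021, Ndufs7 0.078, Sdhb 0.30 and Uqcrq 0.029. In C1qa-gated cells 0.03 became -0.073 as a mean of cells, -0.083 per mitochondrially encoded UMI and -0.12 with TMM, and 9 of 78 tested members became 1 of 45 at 200 UMIs (21.9% of all genes). In Flt3-gated cells 0.0045 became -0.35 per mitochondrially encoded UMI and -0.26 with TMM, and 5 of 77 members became 9 of 87 at 10 UMIs (50.9% of all genes), 2 of 39 at 200 (26.5%) and 13 of 77 with TMM (34.6%). In Cd3e-gated cells -0.27 became -0.15 per mitochondrially encoded UMI and -0.41 with TMM, and 16 of 79 members became 9 of 47 at 200 UMIs (16.2% of all genes) and 28 of 79 with TMM (22.0%). In Ncr1-gated cells -0.40 became -0.75 per mitochondrially encoded UMI. There 3 of 11 tested members, where 32.6% of all genes were past the fold, became 27 of 59 at 10 UMIs (48.7% of all genes). They became 1 of 11 with TMM (32.1%) and 1 of 5 with own markers leading (31.1%). The highest to lowest class in control, 1.46, became 1.29 with the looser gate (at least 1 UMI of the gate gene and 0 of the others), 1.59 as a mean of cells, 1.59 per mitochondrially encoded UMI (Epcam-gated lowest), 1.60 after subtraction and 1.53 with own markers leading. In cKO 1.00 became 1.04, 0.97 (Actg2-gated highest), 0.93, 1.12 and 1.26 under these same alternatives. At 5000 to 20000 UMIs the highest class in control was Ncr1-gated, at 1.62%, with Actg2-gated cells at 1.21%. Of 2980 values of 52 named members over 11 alternatives, 2632 stayed within their counting interval, 341 moved outside it with the same sign or without a call, and 7 reversed. No paired analysis was possible because each group is 1 library. The Ncr1-gated class, with 7 and 6 cells, limits what its depth can show.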
